A study of Mus musculus with 4 samples.

Results

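Sharp methylation borders are places in the mouse sperm genome where an almost unmethylated window of 200 bp lay directly beside a highly methylated one. They were sought in targeted bisulfite sequencing (TGBS) data from swim-up sperm and from histone replacement-completed sperm (HRCS), with 2 libraries per fraction. Only CG sites covered by 10 or more reads in every one of the 4 libraries were used, windows were counted from position 1 of each chromosome, and a window was measured when it held at least 3 such kept sites. Its methylation level is the mean of its site levels, averaged over the 4 libraries. A border is a pair of directly adjacent measured autosomal windows of which one had a level of at most 10% and the other of at least 75%. Of 130226 adjacent pairs, 30 met this rule (0.023%), which is 1 border per 4341 pairs. The rule used the levels of these windows, so their levels and the size of the step are given as a description without a test.

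All sperm came from wild-type C57BL/6 males aged 11 to 12 weeks. Swim-up sperm are the motile cells collected from the top of the medium. The labels name cauda epididymis and vas deferens as the source of total sperm, whereas the study describes its swim-up culture with the cauda epididymis alone, so a difference in source cannot be told apart from one in fraction. To obtain HRCS, total sperm from both tissues was mildly sonicated to part the heads from the tails, and the dense heads were pelleted through 82% Percoll. The methods spin sperm through 50% Percoll and treat it with detergent to remove somatic cells, without giving the remaining share of such cells or the number of animals behind a library. Capture probes selected regions of the DNA, so the borders are a sample of the captured part of the genome. The labels do not say whether replicates came from separate animals, and the p-values below measure only the spread between libraries. The exception is Fisher's exact test on pooled calls, which leaves that spread out.

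In mammalian DNA, methyl groups sit mostly on cytosines followed by guanine, and in sperm most of the genome carries them. Stretches rich in CG sites, called CpG islands, are the main exception and often lie at gene starts. The methylation level usually rises over the flanks of an island, which are called shores. A border as defined here is a rise that needs no intermediate window. The positions below are those of mm9, the build of the tables, for which no genome or annotation was used here, so that genes and sequences at the borders were not analysed here.

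Depth, given as calls (a read that covers 3 CG sites makes 3 calls), was 78562921 and 71379227 for swim-up replicates 1 and 2 and 89403347 and 78381101 for HRCS replicates 1 and 2. Of 229337 measured autosomal windows, 119262 had a level of at most 10% (52.0%), 80097 of at least 75% (34.9%) and 29978 lay between (13.1%). Adjacent windows were mostly alike, since 85883 pairs were low on both sides and 25646 high on both sides. A low window next to an intermediate one made up 7086 pairs, and a high window next to an intermediate one 2464. On the X and Y chromosomes, 0 of 1073 adjacent pairs met the border rule.

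The 30 borders lay on 11 autosomes and comprised 59 windows with 241 kept CG sites, because a single low window was bordered on both sides. The low side lay to the left in 15 borders and to the right in 15. The level averaged over the libraries ran from 1.52% to 9.92% on the low sides, with a median of 6.72%, and from 75.8% to 95.7% on the high sides, with a median of 80.4%. The step between both sides ran from 66.6 to 91.7 percentage points, with a median of 75. Border windows were less extreme than their classes as a whole, whose median level was 1.26% over all low windows and 96.0% over all high windows. The limits of the rule, at 10% and 75%, were the same for both.

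The number of kept sites in border windows was as follows. Low sides held 3 to 11 kept CG sites with a median of 4, and high sides 3 to 10 with a median of 3.5. The minimum of 3 sites was met exactly by 12 low sides and 15 high sides. Over distinct windows this was 37.9% of the low sides, against 11.1% of all low windows, and 50% of the high sides, against 44.1% of all high windows. A window and library held between 32 and 727 calls on the low side and between 33 and 423 on the high side, so that at the lower end a single read moved a window level by several percentage points. Both limits were met in each of the 4 libraries taken alone by 11 of the 30 borders.

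The cleanest step lay on chromosome 11 from 118402401 to 118402800. Its high window had levels of 89.1% and 93.0% in swim-up sperm and of 89.7% and 94.4% in HRCS. The low window beside it had levels of 0% and 0% in swim-up sperm and of 3.3% and 2.9% in HRCS. In every library each of the 5 high sites was at 80% or more and each of the 4 low sites at 7.1% or less, which was the case at 1 of the 30 borders. The last methylated site, at 118402591, was read 23 to 35 times per library with a mean level of 93.1%, and the first unmethylated site, 99 bp further at 118402690, was read 19 to 27 times with a mean level of 0%. This was the largest change between neighbouring sites at any of the 30 borders.

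**Figure D1:**
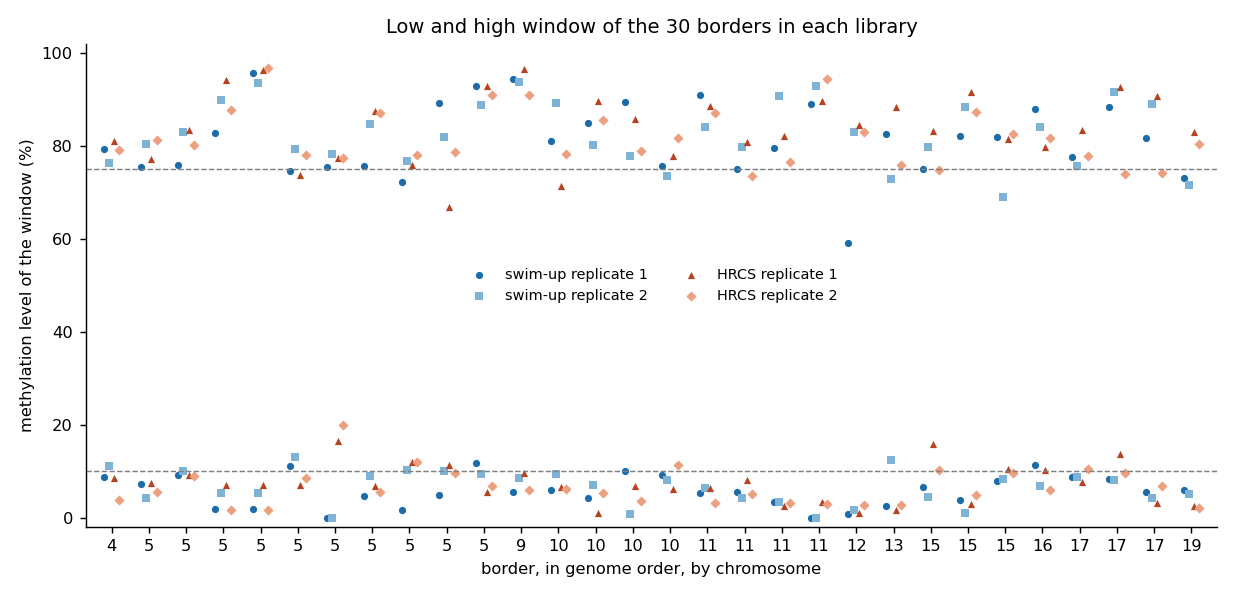
Methylation level in percent (vertical axis) of the low and the high window of each of the 30 borders in genome order (horizontal axis, labelled by chromosome), with 1 symbol per library. Dashed lines mark the limits of 10% and 75%, which the mean of the 4 libraries had to meet, and single libraries cross them at 19 borders.

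The border with most kept sites lay on chromosome 15 from 78441601 to 78442000, with 5 sites on the low side and 10 on the high side. The low side had levels of 3.9% and 1.1% in swim-up sperm and of 2.9% and 4.8% in HRCS. The high side had levels of 82.1% and 88.3% in swim-up sperm and of 91.7% and 87.4% in HRCS. No site level averaged over the libraries fell between 10% and 75% here. From 78441726 to 78441889, a distance of 163 bp without a listed CG site, the mean site level went from 6.3% to 77.6%.

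At other borders with many sites the step inside the pair of windows was graded in some and abrupt in others. On chromosome 5 from 33781001 to 33781400, 11 sites on the low side and 3 on the high side were kept. The low side had levels of 7.3% and 4.3% in swim-up sperm and of 7.3% and 5.5% in HRCS. The high side had levels of 75.5% and 80.4% in swim-up sperm and of 77.2% and 81.2% in HRCS. Over 4 consecutive sites within 68 bp, at 33781172, 33781196, 33781220 and 33781240, the mean site levels were 3.6%, 39.2%, 64.9% and 78.8%. The window edge fell between the second and the third of these sites, so a step of 72.5 percentage points between windows was made of several smaller ones. On chromosome 5 from 112902201 to 112902600, the site levels likewise went from 70.5% to 32.6% over 109 bp and then to 6.6% over a further 29 bp. On chromosome 17 from 32532801 to 32533200, sites of 57.1% and 16.2% lay between sites of 93.9% and 2.9%. The pair at 112902201 is 1 of 7 borders with 9 kept sites, of which 2 held no site between 10% and 75%, namely that on chromosome 11 above and that on chromosome 5 at 113147801 described next.

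A single low window, on chromosome 5 from 113147801 to 113148000, was bordered on both sides. Its levels were 1.8% and 5.3% in swim-up sperm, against 7.0% and 1.6% in HRCS. The window to its left had levels of 82.9% and 89.9% in swim-up sperm and of 94.3% and 87.9% in HRCS. To its right the levels were 95.7% and 93.6% in swim-up sperm, against 96.4% and 96.9% in HRCS. The unmethylated part was measured at 3 sites over 48 bp, from 113147824 to 113147872, and the nearest kept sites lay 101 bp to the left, with a mean level of 67.7%, and 145 bp to the right, with 89.9%. The nearest site of at least 75% to the left was 131 bp away. No high window was bordered on both sides.

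Pairs near the limits differed little from the members. Just inside the limit of 10% were the pair on chromosome 17 at 29651201, with levels of 9.92% and 86.6%, and that on chromosome 5 at 114563401, with 9.90% and 76.5%. Just outside it were the pairs on chromosome 4 at 135243001, with 10.02% and 78.5%, and on chromosome 15 at 27801201, with 10.2% and 93.2%. Nearest inside the limit of 75% was the pair on chromosome 5 at 123100201, with levels of 8.91% and 75.8%, followed by the pair at 114563401 above. Just outside were the pairs on chromosome 2 at 30613601, with 5.80% and 74.3%, and on chromosome 3 at 94690001, with 3.88% and 73.8%. Counting these, 24 pairs had a low side between 10% and 15% beside a window of at least 75%. A high side between 70% and 75% beside a window of at most 10% was present in 16 pairs. A step of at least 65 percentage points at any levels was present in 89 pairs.

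To place each border within its pair of windows, the kept sites were split in order at the point that left the smallest sum of squares around the mean on either side. This point is called the change point. The sites on both sides of it were 24 to 295 bp apart, with a median of 133.5 bp, whereas other neighbouring kept sites of the same pairs had a median spacing of 22.5 bp (n = 184). The change point fell in the widest spacing of the pair at 22 borders and not at 8. In 26 borders no other listed CG site lay in this spacing, and in the other 4 a total of 16 sites without enough reads did. The place of the change is therefore not resolved within these distances. In 9 of the 30 borders the spacing was 100 bp or less, the number of sequencing cycles of a read. The rule requires the level to change between the windows, and a wide spacing spans a given place more often than a narrow one. Spacings over the shared edges of other pairs were not compared, so the wider spacing at the change point is a description without a test.

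Across the change point, the mean site level differed by 32.2 to 93.1 percentage points, with a median of 68.7. The difference was 65 points or more at 18 borders, and under 50 points at 9. Sites between 10% and 75% were absent from 4 borders, 8 borders held 1 such site, 14 held 2 and 4 held 3 or more. The change point lay within 50 bp of the shared window edge in 26 of the 30 borders.

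The sites were then aligned at the change point. It was placed by these same levels in pairs chosen for a step, so a rise at this point was set by the choice and the alignment. Sites within 50 bp had a mean level of 15.8% on the low side (10 sites) and of 74.2% on the high side (11 sites). From 50 to 100 bp the means were 7.93% and 78.7%, from 100 to 150 bp 6.13% and 85.6%, and from 150 to 200 bp 4.66% and 86.0%. Farther out on the methylated side, mostly beyond the sites the rule used, the mean level was 87.7% at 200 to 300 bp (33 sites of 18 borders), 87.6% at 300 to 400 bp (22 sites of 10), 90.4% at 400 to 500 bp (11 sites of 8), 91.7% at 500 to 700 bp (17 sites of 8) and 94.8% at 700 to 1000 bp (12 sites of 6). The bins thus rest on different borders, and the part of this in the higher means was not tested. The mean from 700 to 500 bp on the low side was 1.70%. Means of 10.3%, 16.6% and 8.81% in the bins from 200 to 500 bp on the low side stood beside medians of 2.25%, 2.21% and 1.23%, and sites of at least 75% lay in these bins. Of these sites, 13 were flanks of the low window that was bordered on both sides, and 5 belonged to 3 other borders. Of the sites within 50 bp, 60% on the low side and 45.5% on the high side had an intermediate level between 10% and 75%.

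**Figure D2:**
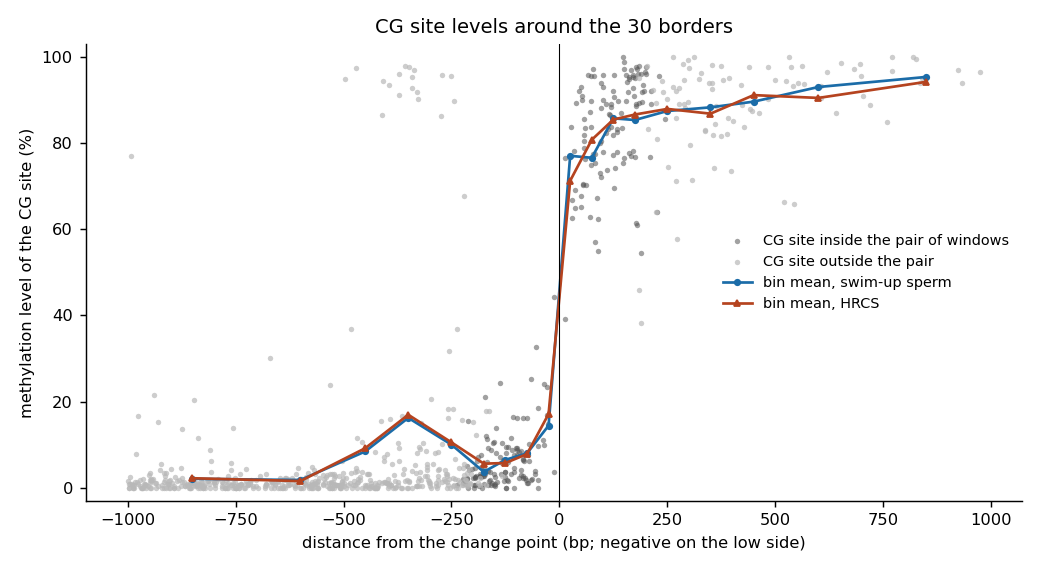
Methylation level in percent of each kept CG site (points, mean of the 4 libraries) against its distance in bp from the change point of the border, with negative distances on the low side. Lines give the mean of all sites in a distance bin for each fraction. Both rise from under 20% to over 70% across the change point, a rise set by the choice of pairs and the alignment. With small dips, both reach about 95% in the farthest bin on the methylated side.

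Few windows next to the borders were measured. The low side was a single window in 16 borders, and the longest unbroken run of low windows held 10. The high side was a single window in 22 borders, with a longest run of 4. Runs on the high side ended at an unmeasured window in 30 of 30 borders, and runs on the low side in 22 of 30, so the extent of both states is mostly unknown. Where the next window on the high side was measured, at 8 borders, its level was at least 75% each time, with a median of 88.8%. The next window on the low side was measured at 20 borders and was low at 14, intermediate at 4 and high at 2, which are both borders of the low window bordered on both sides.

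To see how common such steps are among measured changes of state, every passage between a low and a high window was counted. Only unbroken runs of measured windows were used, and the number of intermediate windows was recorded. A passage with more intermediate windows needs a longer measured run, so broad passages are more easily missed. The sharp share therefore describes these runs and not all changes of state. There were 482 passages. Of these, 30 had no intermediate window and are the sharp borders (6.22%), 169 had 1 (35.1%), 189 had 2 (39.2%), 74 had 3 (15.4%) and 20 had 4 or more. The 452 passages with at least 1 intermediate window are called broad below. In single libraries the sharp share was 8.42% and 7.23% for swim-up sperm and 6.5% and 6.6% for HRCS. From the mean level of both libraries of a fraction the order was the opposite, with 30 of 473 passages in swim-up sperm (6.34%) and 34 of 482 in HRCS (7.05%). The number of borders was 42 and 35 in swim-up replicates 1 and 2 and 32 and 33 in HRCS replicates 1 and 2.

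**Figure D3:**
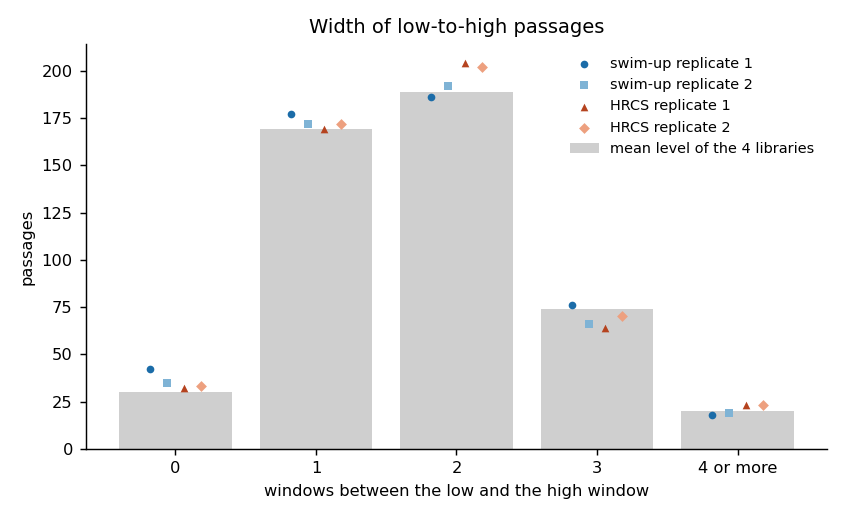
Number of passages between a low and a high window (vertical axis) by the number of intermediate windows of 200 bp in them (horizontal axis). Bars are from the mean level of the 4 libraries and points from each library alone, and in every library passages with 1 or 2 intermediate windows far outnumber the 32 to 42 with none.

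Steps between neighbouring sites were also read in the broad passages. The largest rise between neighbouring kept sites had a median of 68.7 percentage points at sharp borders and of 46.4 in broad passages. It was read over unlike distances, with a median spacing of 133.5 bp at sharp borders and of 69 bp in broad passages. A rise of 65 points or more was present in 60% of the sharp borders and in 12.4% of the broad passages. The median share of sites with an intermediate level was 22.2% and 41.7%. These differences follow in part from the rule, which leaves intermediate windows out of sharp borders, and carry no test.

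The number of CG sites, which is the same in every library, was not used by the rule beyond the minimum of 3 kept sites. Low windows over all autosomes listed a median of 9 CG sites, with quartiles of 6 and 16, intermediate windows 5 and high windows 4. Border windows listed a median of 4 on the low side and of 4 on the high side. The low side had more sites than the high side at 11 borders, as many at 9 and fewer at 10, and the mean difference was 0.2 sites. With windows of 200 bp, the low sides thus had the same median as high windows elsewhere. The 880 borders found with windows of 500 bp had 6.82 more sites on the low side on average. Both differences are counts per window, not scaled to its length. The minimum of 3 kept sites is also a weaker limit in longer windows.

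The sharp borders also differed from broad passages in the CG sites farther out. At sharp borders the mean number of listed CG sites per window was 4.53 in the low window and 5.93, 6.53 and 6.23 in the windows next to it, outward on the low side. Broad passages held 6.89, 9.76, 12.3 and 13.6 in the same places. On the methylated side, both sets held about 4.3 sites in the first window, and 2.50 and 2.93 in the second. A window with at least 10 listed CG sites was present among the first 6 on the low side at 15 of 30 sharp borders (50%) and in 377 of 452 broad passages (83.4%). The median count of the densest of these 6 windows was 9.5 and 19. Broad passages need more measured windows in a row than sharp borders, each with at least 3 kept sites. The part of this requirement in their higher counts was not tested. Windows of neighbouring passages can also overlap, so these counts are a description of the genome at both sets and carry no test.

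**Figure D4:**
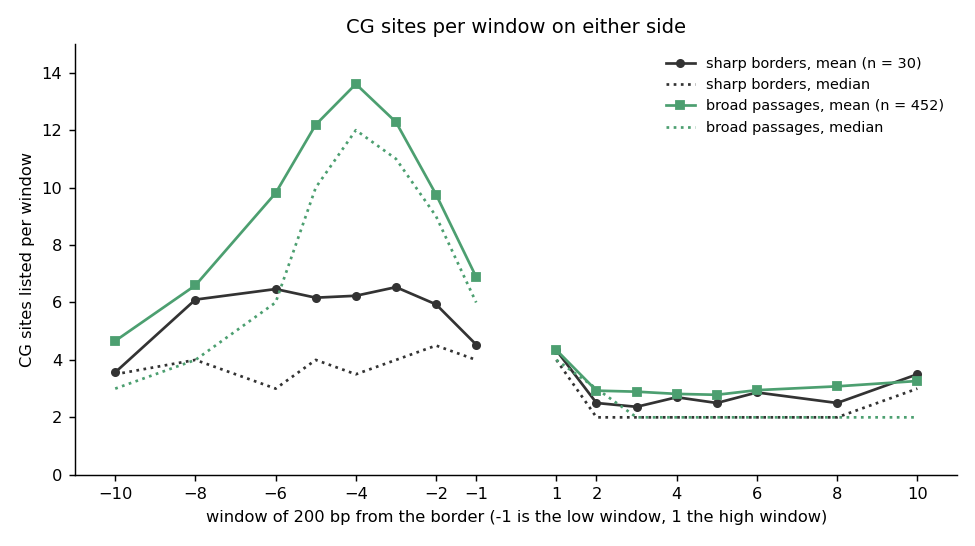
Mean (solid) and median (dotted) number of CG sites listed per window of 200 bp by its place from the border, for the 30 sharp borders and the 452 broad passages. Negative numbers are windows outward on the low side, where broad passages reach a mean of 13.6 sites 4 windows out and sharp borders stay under 7. In broad passages, places are counted outward from the low and the high window, so the intermediate windows are left out.

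The question the design puts to these places is whether they differ between HRCS and swim-up sperm, in which the study describes a share of cells with incomplete histone replacement. The difference between the fractions was not used by the rule. The low sides had mean levels of 5.89% and 6.58% in swim-up replicates 1 and 2 and of 7.25% and 6.65% in HRCS replicates 1 and 2. Both HRCS values were the higher, but the difference of 0.715 percentage points, between 6.24% ± 0.486 and 6.95% ± 0.423 (SD, n = 2), had p = 0.333 in a two-sided exact permutation test over libraries, the smallest p that 2 libraries against 2 can give. A single window, the low side on chromosome 5 at 116252001 described below, made up most of this value. Without it the difference over the other 28 low sides was 0.0911 percentage points (exact permutation p = 0.667), and the libraries had 6.10% and 6.82% for swim-up sperm and 6.92% and 6.18% for HRCS, which overlap. With either swim-up library left out, which also changes the members, the sign turned, to -1.34 without replicate 1 and -0.193 without replicate 2. All low windows of the autosomes had mean levels of 1.86% (swim-up sperm) and 1.98% (HRCS).

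The high sides had mean levels of 81.3% and 82.7% in swim-up sperm and of 84.3% and 81.8% in HRCS. These ranges overlapped, and the difference of 1.06 percentage points had p = 0.667 in the exact permutation test. With members chosen again on the remaining libraries, it was -0.0420 without HRCS replicate 1 and 2.48 without HRCS replicate 2. All high windows of the autosomes had mean levels of 94.6% and 94.5% in swim-up sperm and of 94.2% and 94.2% in HRCS, a difference of -0.324 (exact permutation p = 0.333). The step between both sides was 75.9 percentage points in swim-up sperm and 76.2 in HRCS (exact permutation p = 1). Kept sites of the low sides were read 1.07 times as often as those of the high sides in swim-up sperm and 1.10 times in HRCS (exact permutation p = 0.333).

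Single border windows were then compared between the fractions. In a quasi-likelihood test with edgeR, run on the calls of each window and adjusted by Benjamini and Hochberg over all 231489 windows, 0 of the 59 border windows passed an adjusted p of 0.05, where 0.00302% of all windows did. An unadjusted p under 0.05 was reached by 2 of the 59, against a background of 4.48%. limma on log ratios called 0 of the 59 and 0 of all windows after adjustment, and reached an unadjusted p under 0.05 at 2 of the 59, against a background of 5.53%, and Fisher's exact test on calls pooled by fraction, which takes reads as independent, called 1 of the 59, against a background of 0.815%. Both HRCS libraries lay above both swim-up libraries at 6 of the 29 low sides (20.7%, background 17.4%) and at 6 of the 30 high sides (20%). Both lay below at 5 low sides (17.2%, background 15.8%) and at 3 high sides (10%).

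The window with the lowest p, chosen here after its values were seen, was the low side of the border on chromosome 5 from 116251801 to 116252200. Its levels were 0% and 0% in swim-up sperm, against 16.4% and 20.0% in HRCS, with an unadjusted p of 0.000905 and an adjusted p of 1 in edgeR's test. It was also the window that Fisher's exact test called, with an adjusted p of 0.003587. The high side of this border had levels of 75.5% and 78.3% in swim-up sperm and of 77.4% and 77.3% in HRCS. Its low side was measured at 3 sites within 12 bp, from 116252186 to 116252198, with 10 to 16 reads per site in the swim-up libraries and 16 to 23 in HRCS. At the next 2 sites, 3 and 10 bp beyond the window's last kept site, swim-up replicate 1 had 18.8% at both and swim-up replicate 2 had 0%, against 22.2% to 30.8% in HRCS. A level of 0% in both swim-up libraries thus ended at the window's last site. Sites this close share their reads, so each library here rests on little more than the reads of a single site. The other window was the low side of the border on chromosome 11 described above, with an unadjusted p of 0.0386 and an adjusted p of 1 in edgeR's test.

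Differences between libraries of different fractions were compared with those between replicates. On the low sides, the mean absolute difference between replicates was 2.68 percentage points in swim-up sperm and 2.52 in HRCS, and that between libraries of different fractions was 3.05 to 3.67. On the high sides, it was 6.20 and 5.22 between replicates and 4.81 to 6.16 between fractions. Without the low window at 116252001, the low sides gave 2.78 and 2.48 between replicates and 2.44 to 3.21 between fractions. The ranges then overlapped on both sides. The single value farthest from the nearest other library was 59.1% in swim-up replicate 1 on the high side of the border on chromosome 12 at 106035001, where the other 3 libraries had 83.0% to 84.5%. Next came 73.9% in HRCS replicate 2 on the high side on chromosome 17 at 29651201, against 88.3% to 92.6%.

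The place of the border could be compared only from one spacing between kept sites to the next. A shift inside a spacing, which was 24 to 295 bp wide, cannot be seen. The rule also required the mean of the same 4 libraries to step between the windows, so agreement between libraries was set in part by the choice of members. The change point, located in each library alone, fell between the same neighbouring sites in all 4 libraries at 24 of the 30 borders. Its mean distance from the window edge, positive toward the methylated side, was 4.30 and 5.17 bp for swim-up sperm and 2.53 and 8.55 bp for HRCS. The difference of 0.808 bp between 4.73 ± 0.613 and 5.54 ± 4.25 bp (SD, n = 2) had p = 1 in the exact permutation test. The mean was also the same in both fractions at 26 borders taken singly, and at 0 borders did the positions in both HRCS libraries lie to one side of those in both swim-up libraries. Between replicates, the change point was in different spacings at 3 borders in swim-up sperm and at 5 in HRCS, and between libraries of different fractions at 2 to 4. At the border on chromosome 17 at 32532801, it fell 119.5 bp from the edge in swim-up replicate 1 and HRCS replicate 2 and 29.5 bp from it in the other 2 libraries.

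In the profile by distance, no bin passed the threshold of 0.05 between the fractions, which 2 libraries against 2 cannot reach. The lowest adjusted p over the 18 distance bins was 0.75, and it was 0.667 over the 10 bins of sites outside the pairs, in exact permutation tests over libraries with Benjamini and Hochberg adjustment.

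To compare the fractions with members chosen on other libraries, borders were also found in the mean of 1 fraction and read in the other. Of 30 borders chosen in swim-up sperm, 19 met both limits in HRCS (63.3%), 24 had a step of at least 65 percentage points there and all 30 one of at least 50. Of 34 borders chosen in HRCS, 19 met both limits in swim-up sperm (55.9%), and all 34 had a step of at least 50 points. The smallest step read in the other fraction was 53.7 percentage points for the first group and 58.3 for the second. Borders chosen in a single library were also read in the replicate of the same fraction. Both limits were met there in 45.2% and 54.3% of cases in swim-up sperm and in 65.6% and 63.6% in HRCS. In a library of the other fraction the share was 42.9% to 57.6%. Both HRCS shares lay above this range and both swim-up shares within it, which was not tested. The median step read was 73.1 to 74.4 percentage points within a fraction and 70.2 to 75.1 across fractions, which are overlapping ranges.

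Which steps met the rule depended on where the windows started. With starts moved in steps of 20 bp, 10 sets of windows gave 22 to 35 borders, with a median of 26.5, and 107 distinct transitions in all. Of these, 34 were found with 1 start only and 12 with at least 5 of the 10, and 8 was the largest number of starts for any transition. The 30 borders described here were found with 1 to 8 starts, with a median of 3. Windows moved by 100 bp gave 23 borders, of which 1 was shared. The members are thus a part of a larger group of abrupt transitions, chosen in part by where the window edges fell.

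**Figure D5:**
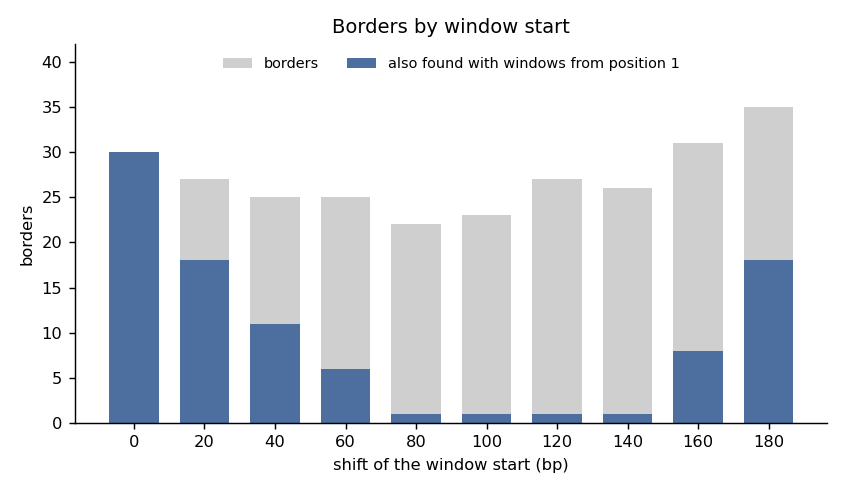
Number of borders (grey bars) found with windows of 200 bp whose start was moved by 0 to 180 bp, and the number of them also found with windows counted from position 1 (blue bars). The total stays between 22 and 35 while the shared part falls to 1 at shifts of 80 to 140 bp.

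The borders were unevenly spread over the chromosomes. Chromosome 5 held 10 of the 30 (33.3%) with 7.16% of the adjacent pairs and 8.19% of the broad passages. Of these 10, 9 lay within 30.1 Mb from 112902201 to 142955000, a stretch with 3.06% of the pairs and 5.53% of the broad passages. The ends of this stretch were set by these 9 borders, so that its share of borders is a description and no test. With the other window starts, 4 of the 77 transitions not found with the original start lay on chromosome 5 (5.19%), and over all starts it held 14 of the 107 (13.1%). The stretch held 11 of the 107 (10.3%). The share on chromosome 5 was thus high with the original start and below its share of pairs among the transitions that other starts added. Chromosomes 10 and 11 held 4 borders each, chromosomes 15 and 17 held 3 each, and 8 autosomes held none.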

How the data were processed

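TGBS libraries of swim-up sperm and HRCS (2 each; single reads of 100 cycles) were analysed from the deposited counts, which give methylated and all reads for each CG site and strand without normalization. The authors enriched DNA with the SureSelect Mouse Methyl-Seq kit, tagged it by the post-bisulfite adapter method, amplified it by 5 cycles of PCR and mapped reads to mm9 with Bmap. The columns carry no names; methylated reads were taken to be in the fourth column and all reads in the fifth, whose value is nowhere smaller. Duplicate removal is not given in the sources used here, and PCR copies and sites on 1 read are not independent. Strands were added, which left 1934865 kept sites at the minimum of 10 reads. Minus strand reads, as the tables write strand, made up 88.7% to 89.6% of calls.

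Levels over libraries were compared with two-sided exact permutation tests, and windows with edgeR 4.0.16 (R 4.3.3; a term per library, 1 dispersion without trend), with limma 3.58.1 and a Fisher's exact test of summed calls as alternatives. Other values were computed in Python 3.11.15 with numpy 2.4.6 and pandas 2.3.3. The edgeR fit and the change point search were tested on simulated data. Named borders were those past the adjusted p (none), up to 6 with every site beyond the limits in every library, the 4 with most kept sites (the last taken by position from 7 tied at 9 sites), windows bordered on both sides, the largest position shifts without overlap (none) and the 2 pairs on either side of each limit. The borders, the rule and the comparisons were chosen with earlier results of these data known. The alternatives, among them leaving out each library, are described below, with values where a result changed. The other window starts and the low-side difference without the window of the lowest p were added after seeing the data, and the counts by chromosome were also described after that.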

Additional observations from a re-analysis of the deposited data

How the results depend on the processing

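The number of borders depended on the definition. Against 30, there were 49 with a minimum of 5 reads, 11 with 20 reads, 1 with at least 5 sites per window, 1 with windows of 100 bp, 880 with windows of 500 bp, 2 with limits of 5% and 90% and 372 with limits of 20% and 60%, and 28 to 31 when a library was left out. The 49 overlapped all 30, the 11 overlapped 8 of them, and 28 of the 30 were overlapped with thinning to 10 reads, 27 with pooled calls and 25 with minus strand reads alone. Windows of 500 bp gave borders that overlapped 7 of the 30, and windows of 100 bp overlapped 0.

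The sharp share of passages, 6.22%, was 9.09% with 20 reads, 3.57% with 5 sites, 10% and 26.2% with windows of 100 and 500 bp, 5.11% with windows moved by 100 bp, 1.31% and 35.2% with the strict and loose limits, 7.44% with thinning, and 5.93% to 6.44% without a library. The spacing at the change point, 133.5 bp, was 142 bp with 5 reads, 171 with 20 reads, 163 with 5 sites, 69 and 274 with windows of 100 and 500 bp, 147 when moved by 100 bp, 122 and 99 with strict and loose limits, 142.5 with thinning, 113 with minus strand reads and 135.5 to 143 without a library. The difference in listed sites, low minus high side, was -0.364 with 20 reads, -5 with 5 sites, 1 and 6.82 with windows of 100 and 500 bp, -2.50 and 0.616 with strict and loose limits, 0.0625 with pooled calls, -0.0800 with minus strand reads and -0.0645 to 0.241 without a library.

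The sign of the differences between the fractions was kept by 13 alternatives and turned by 4 on the low sides, kept by 11 and turned by 5 on the high sides, and kept by 12, counting 3 with a shift of 0 bp, and turned by 6 for the position shift. The replicate block is counted among those that kept it, but it leaves the difference itself unchanged and could not turn it. Settings with only 1 or 2 borders are counted like the others. Among those that turned, HRCS minus swim-up was -0.0759 with 20 reads and -0.725 with thinning on the low sides, with -1.34 to 0.650 without a library. On the high sides it was -0.0272 with 20 reads, -3.48 and -0.0464 with windows of 100 and 500 bp, -0.619 when moved by 100 bp and -0.0420 to 2.48 without a library. The position shift was -3.27 bp with windows of 500 bp, -0.674 when moved by 100 bp, -3.66 with thinning, -1.56 with 1 further window on each side and -0.914 to 3.69 without a library. Most of these settings change the members as well as their values, whereas 1 further window changes only how the position is read, and the cause was not tested. Leaving out a library also gives the other fraction more weight in the choice of members. With the low window of the lowest p left out, an alternative added after seeing the data, the low-side difference was 0.0911. Fisher's exact test called 1 border window (adjusted p = 0.003587), and the other fits called 0.

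The labels do not say whether replicate numbers pair the samples. Same-numbered deviations had r = 0.00137 over windows, which cannot exclude a pairing that leaves methylation levels unchanged. With the replicate block, differences between same-numbered libraries were tested by exact sign flips and not by permutation over the libraries. The p of this paired test was 0.5 for the low-side difference of 0.715 points, the smallest p possible. It was 1 for the high-side difference of 1.06 and 1 for the shift of 0.808 bp. With the block, edgeR called 0 border windows and 10 windows in all against 7.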
